A study of Mus musculus with 6 samples.

Results

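The genes that set, copy, oxidize and repair DNA methylation were examined for their own methylation in CD8+ T cells carrying human STAT5B transgenes. These were Dnmt1 and Uhrf1, Dnmt3a and Dnmt3b, Tet1, Tet2 and Tet3, and Tdg. All CpG dinucleotides in the 8 genes and within 10 kb on either side of them were taken from the mm10 genome, provided that they had 5 or more reads in all 6 libraries. This left 880 CpGs of 1191873 in the series, of which 787340 lay in or within 10 kb of a protein-coding gene. The choice of CpGs used position and depth only, and no methylation value, whereas the 8 genes were chosen with earlier results of these data known.

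DNMT1 copies methylation onto the new strand after replication, and UHRF1 brings it to hemimethylated CpGs, whereas DNMT3A and DNMT3B methylate sites de novo. The TET enzymes oxidize 5-methylcytosine, and TDG excises the most oxidized forms so that base excision repair restores cytosine. DNMT3A and TET2 are recurrently mutated in human T cell lymphoma, and methylation of a promoter CpG island (CGI), a CpG-rich stretch, is commonly found with a silent gene. In gene bodies, methylation is common in transcribed and silent genes alike.

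The question was whether these loci differed between genotypes that differ in STAT5B. DNA was profiled by reduced representation bisulfite sequencing (RRBS), in which MspI cuts DNA at CCGG and bisulfite turns unmethylated cytosine into a base read as T. The 3 genotypes of C57BL/6N mice had 2 libraries each: WT mice without a transgene, mice carrying the nonmutant human STAT5B (hSTAT5B, genotype hSTAT5B +/T), and mice carrying human STAT5B with the N642H substitution (hSTAT5B N642H, genotype hSTAT5B N642H +/T). The CD8+ T cells were magnetically enriched from LNs. The mice were 13 weeks old. Disease is stated for the hSTAT5B N642H mice used for mRNA sequencing and not separately for those used for RRBS, so that if these were diseased too the allele and the disease cannot be told apart. Both transgenes were introduced by pronuclear injection and driven by the Vav1 promoter, which is active in hematopoietic cells, and WT mice of the strain carried neither.

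CpGs were grouped in 2 ways. A region was the promoter (1000 bp before to 500 bp after the main annotated start), the same window at an alternative start 1000 bp or more away, the rest of the gene body, or the rest of the flank, with 3 or more CpGs. A stretch was a run of 3 or more CpGs with gaps of at most 100 bp. The level of either is the unweighted mean of the methylated share of reads at its CpGs. The 8 genes held 32 regions and 87 stretches, out of 53523 regions of 21853 protein-coding genes and 124081 stretches genome wide. Between 6.62% (Tet1) and 13.05% (Uhrf1) of the CpGs of each window were covered, which gave 111 CpGs for Dnmt1, 92 for Uhrf1, 211 for Dnmt3a, 71 for Dnmt3b, 91 for Tet1, 102 for Tet2, 158 for Tet3, and 44 for Tdg.

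The sequences on which the differences described below rest are given here 5′ to 3′ along the gene, from RefSeq GRCm38, with the CpGs measured in all 6 libraries in capitals. The first 5 hold the gene body or flank stretch with the largest separation of hSTAT5B N642H and WT in each gene that had one.
Tet1 intron, chr10:62884304-62884379, minus strand: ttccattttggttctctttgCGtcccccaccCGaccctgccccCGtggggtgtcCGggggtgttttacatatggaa
Dnmt3a intron, chr12:3871736-3871836, plus strand: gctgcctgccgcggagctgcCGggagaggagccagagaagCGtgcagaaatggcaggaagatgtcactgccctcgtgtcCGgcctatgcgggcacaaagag
Tet3 intron, chr6:83424233-83424356, minus strand: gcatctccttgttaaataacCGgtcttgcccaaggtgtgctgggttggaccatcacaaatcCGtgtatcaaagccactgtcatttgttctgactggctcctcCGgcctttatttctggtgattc
Tet2 intron, chr3:133534131-133534187, minus strand: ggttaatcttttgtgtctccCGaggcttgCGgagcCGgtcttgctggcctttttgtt
Uhrf1 upstream flank, chr17:56300118-56300207, plus strand: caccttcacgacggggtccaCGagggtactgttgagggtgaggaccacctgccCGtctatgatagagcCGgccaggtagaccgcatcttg
The next 2 lie before the main start of Uhrf1 and show the CpGs on either side of the change from a methylated to an unmethylated state, and the third lies before the start of the short Dnmt3a transcript.
Uhrf1 upstream of the CGI, chr17:56302765-56302915, plus strand: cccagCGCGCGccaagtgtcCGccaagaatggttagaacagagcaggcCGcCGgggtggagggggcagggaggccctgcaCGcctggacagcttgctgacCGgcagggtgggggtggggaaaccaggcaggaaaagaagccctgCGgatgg
Uhrf1 first CpGs of the CGI, chr17:56303199-56303238, plus strand: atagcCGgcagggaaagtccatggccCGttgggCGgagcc
Dnmt3a before Dnmt3a-205, chr12:3891572-3891727, plus strand: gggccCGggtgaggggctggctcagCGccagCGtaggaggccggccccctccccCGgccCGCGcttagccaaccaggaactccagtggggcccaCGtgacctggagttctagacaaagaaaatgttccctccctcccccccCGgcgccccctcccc
The last 3 show why some reads at the Tdg start cannot be placed by sequence alone. They are the bases just before a copied stretch, the first 30 bases of that stretch, and the same 30 bases of the copy. In the copy, capitals mark CpGs with a read in all 6 libraries. The last 2 sequences matched at 30 of 30 bases. A further CpG before the copied stretch, at chr10:82629820, was measured too. It spans the border between the first 2 of these 3 sequences and is in lower case in both.
Tdg before the copied stretch, chr10:82629741-82629820, plus strand: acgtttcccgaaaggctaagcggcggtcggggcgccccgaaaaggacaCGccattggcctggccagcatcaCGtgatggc
Tdg start of the copied stretch, chr10:82629821-82629850, plus strand: gaggcCGcCGgcctcctCGgagggggaCGg
Copy elsewhere on the chromosome, chr10:42055445-42055474, minus strand: gaggccgcCGgcctcctCGgagggggaCGg

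The libraries held 43291086 to 67007186 calls on 2597893 to 3445555 CpGs. A read gives a call at each CpG it covers, so that reads summed over CpGs are calls and not separate reads. The CpGs analyzed had a median of 17 to 32 reads and a mean level of 61.9% to 62.7%. Reads carried no molecular identifiers, so that intervals given for reads cover counting error only. The CD8 marker Cd8a had a gene body level of 49.4% in WT replicate 1, against 17% in WT replicate 2, 18.0% and 25.2% in hSTAT5B, and 10.1% and 5.63% in hSTAT5B N642H. WT replicate 1 thus stood apart at this gene. The Cd8b1 promoter was at 37.8% in both WT libraries, 18.8% and 17.5% in hSTAT5B, and 8.51% and 11.8% in hSTAT5B N642H, without overlap between genotypes. The bodies of Cd4 (89.3% to 96.1%) and of the myeloid genes Csf1r (92.2% to 96.4%) and Itgam (88.2% to 91.7%) were methylated in every library, whereas that of the B cell gene Cd79b was at 5.37% to 13.6%. The main promoters of Cd3e, Cd3d, Cd3g and Thy1 had too few CpGs for a value. Of the marker regions, 6 of T cell and CD8 genes were 5 or more points lower in hSTAT5B N642H than in WT without overlap. They were the upstream flanks of Cd3e, Thy1 and Cd8a, the Thy1 alternative start, the Cd8a body and the Cd8b1 promoter. The other regions of these genes did not meet the rule: those of Cd3d and Cd3g, the downstream flanks of Cd3e and Cd8a, and the Thy1 body. Among all regions, 8.97% were that far apart without overlap, in either direction. Among the 6 was the alternative start of Thy1, with 3 CpGs. It was at 68.3% and 37.6% in WT, 23.1% and 40% in hSTAT5B, and 23.1% and 22.8% in hSTAT5B N642H. There hSTAT5B overlapped with both other genotypes. Of B cell genes, 2 regions were higher by the same rule, both flanks of Cd79b. The downstream one was at 23.1% and 48.5% in WT, 29.6% and 56.7% in hSTAT5B, and 72.8% and 60.2% in hSTAT5B N642H. A difference in level can come from all cells or from the mix of cells, which cannot be told apart in bulk DNA, and the part of these marker differences in the results below was not tested.

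At most covered starts of the 8 genes CpGs were almost free of methylation in all genotypes, and those of the gene bodies were mostly methylated (plot of levels by region). The starts Tet1-206 and Tet1-201 were methylated and are described below. Of the 7 main promoters with a value, 6 were below 10% in WT, and the exception was Uhrf1, where the window spans the border of a CGI. The median WT level was 2.00% over these 7 promoters and 2.59% over 12938 promoters of all genes, of which 80.7% were below 10%. Over gene bodies it was 82.1% for the 8 genes and 83.8% for 15106 genes.

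**Figure D1:**
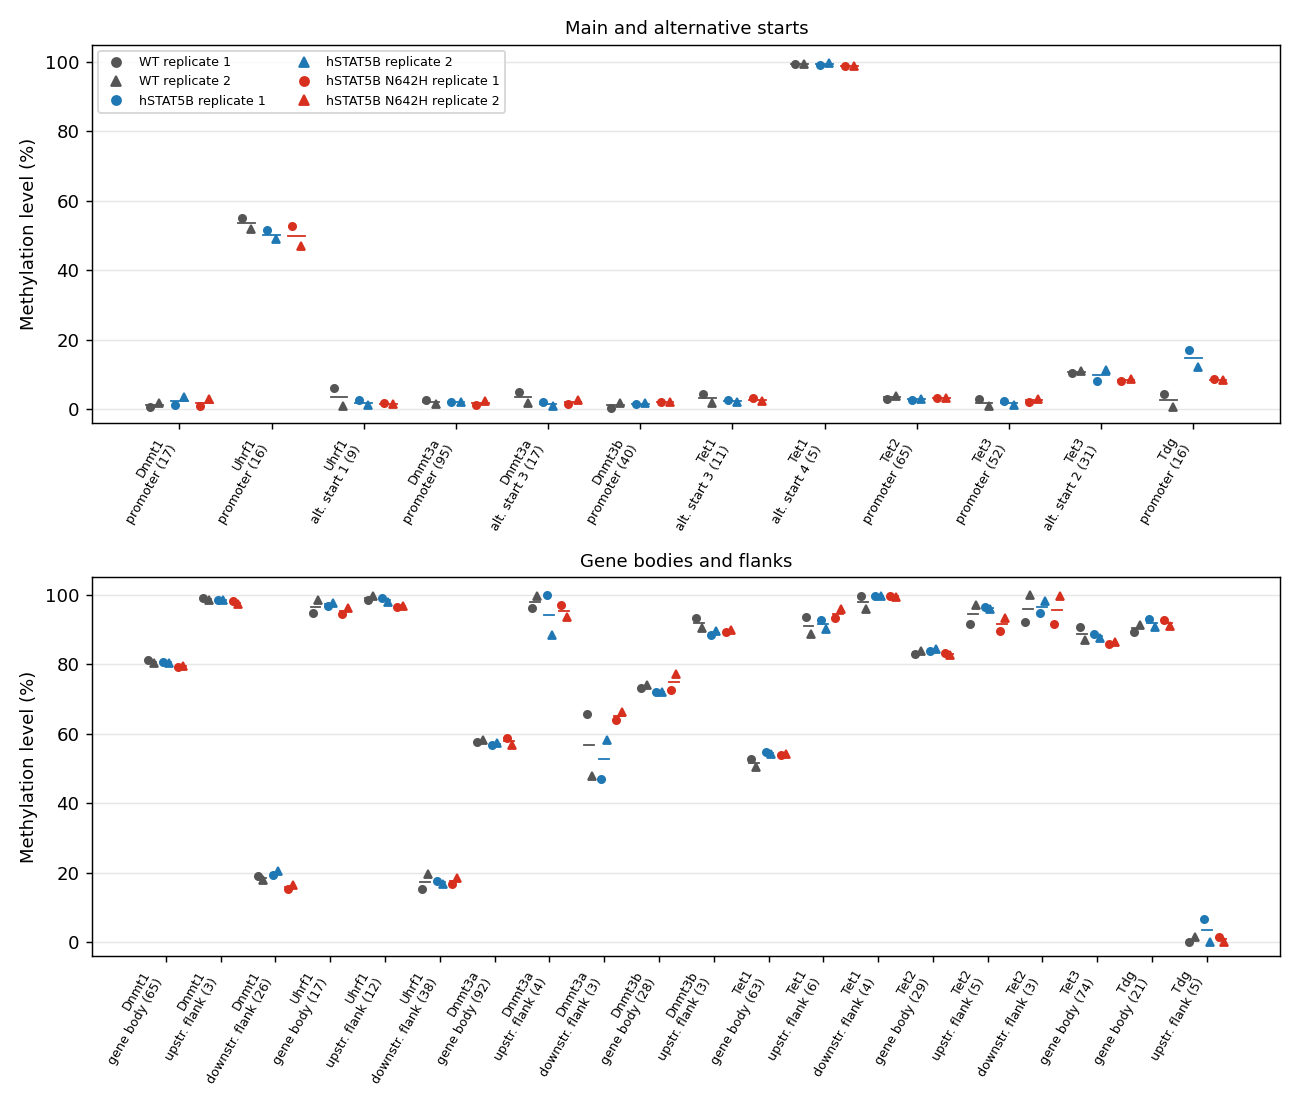
Methylation level (%) of the 32 regions of the 8 genes in each library (circles, replicate 1; triangles, replicate 2; bars, genotype means), with starts above and gene bodies and flanks below, and the number of CpGs in parentheses. Starts lie near 0% apart from the Uhrf1 promoter (47.1% to 55.1%) and the Tet1-201 start (98.8% to 99.7%, alternative start 4), and the Tdg promoter has all hSTAT5B values (12.1% and 17.1%) above all WT values (0.560% and 4.48%).

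Few regions of the 8 genes separated the genotypes, and no region passed the test described next. With means 5 or more percentage points apart and no overlap between libraries, hSTAT5B N642H and WT differed at 1 of 32 regions (3.13%), against 8.97% of all regions. The region was the Tdg promoter. For hSTAT5B and WT the count was also 1 of 32 (3.13%), again the Tdg promoter, against 6.56% of all regions. Between hSTAT5B N642H and hSTAT5B it was 2 of 32 (6.25%), the Tdg promoter and the downstream flank of Dnmt3a, against 8.89% of all regions. Without CpGs in copied sequence, an alternative chosen after seeing the data, the count was 0 of 28 in each comparison. Over the 32 regions, copied sequence included, the count of 1 between hSTAT5B N642H and WT rose to 4 without WT replicate 1. It rose to 3 without hSTAT5B N642H replicate 1. Between hSTAT5B and WT the count rose to 3 without hSTAT5B replicate 2 and to 2 without hSTAT5B replicate 1 or WT replicate 2. With 1 library left out, no overlap is easier to meet, and the matching share of all regions was not computed. Gaps of any size without overlap were found at 11, 7 and 16 of the 32 regions, against 38.6%, 33% and 38.2% of all regions. The transgenic genotypes lay on opposite sides of WT, both without overlap with it, at 1 of 32 regions (3.13%, against 2.66% of all regions) and 4 of 87 stretches (against 2.48% of all stretches).

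The limma model of log2 ratios of methylated to unmethylated reads, with Benjamini-Hochberg adjustment over 53523 regions, called 0 regions in each comparison (0% of all), with 3793, 3256 and 3761 regions at an unadjusted p below 0.05. A quasi-binomial model of the same reads called 51 regions (0.0953%; 17 higher, 34 lower) between hSTAT5B N642H and WT, 1 (0.00187%) between hSTAT5B and WT, and 34 (0.0635%; 3 higher, 31 lower) between hSTAT5B N642H and hSTAT5B, of which 0 belonged to the 8 genes. Among the 51 was the Cd8b1 promoter (quasi-binomial adjusted p = 0.0200, limma adjusted p = 0.648). With 2 libraries per genotype an exact permutation test of a single region cannot go below p = 0.333, and none was run. The p values measure only the spread between these libraries, since the sources used here do not say outright that each came from a separate mouse. The differences below are thus descriptions of these libraries, and values that do not overlap are not shown to differ between genotypes.

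**Figure D2:**
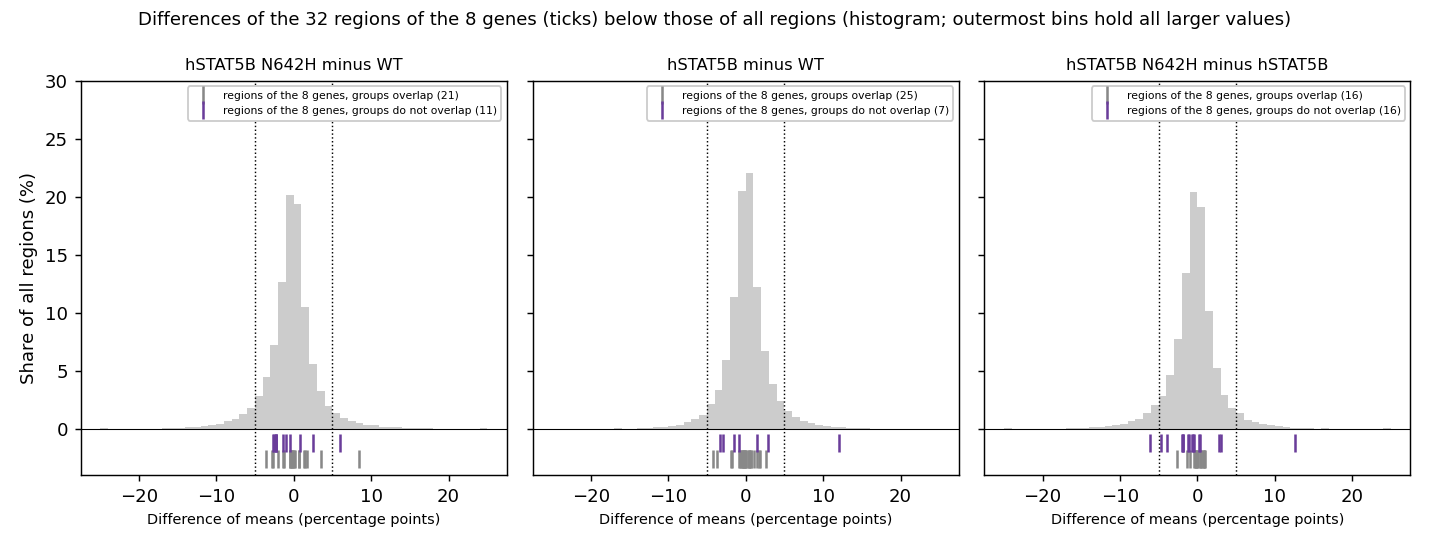
Differences between genotype means (percentage points) in the 3 comparisons, for all 53523 regions (gray histogram, share of regions in %) and for the 32 regions of the 8 genes (ticks below; purple, groups do not overlap; gray, groups overlap); dotted lines mark 5 points in either direction. Most ticks lie within the central mass of the histogram, and the Tdg promoter at 12.1 points in the middle panel and the Dnmt3a downstream flank at 12.6 points in the right panel lie outside it.

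Dnmt1, the maintenance methyltransferase, was methylated in its body and unmethylated at its main start in every library. The 17 CpGs of the Dnmt1-201 promoter were at 0.702% and 1.71% in WT, 1.21% and 3.35% in hSTAT5B, and 0.984% and 2.80% in hSTAT5B N642H. The 3 genotypes overlapped there. The 65 CpGs of the gene body were at 81.1% and 80.3% in WT, 80.7% and 80.3% in hSTAT5B, and 79.2% and 79.6% in hSTAT5B N642H. Both hSTAT5B N642H values lay below all others, by a small margin: the WT mean was 80.7% ± 0.548 and the hSTAT5B N642H mean 79.4% ± 0.301 (SD, n = 2 each), a difference of -1.31 points (log2 ratio -0.07 ± 0.30 SE, limma adjusted p = 0.977). In all, 53 of the 65 body CpGs were above 80% and 11 below 20%, taken over the mean of the libraries. The alternative start Dnmt1-202 lies outside the covered sequence, since 0 of its 15 CpGs had a read in all 6 libraries.

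The flanks of Dnmt1 belong in part to other genes. The 26 CpGs downstream, which include the start of Eif3g, a translation initiation factor subunit, were at 18.9% and 18.0% in WT, 19.3% and 20.5% in hSTAT5B, and 15.3% and 16.4% in hSTAT5B N642H. The hSTAT5B N642H libraries were the lowest and the hSTAT5B libraries the highest, with no overlap between any 2 genotypes. The difference of hSTAT5B N642H from WT was -2.54 points as a mean of CpGs, but the log2 ratio of summed reads was of the opposite sign, 0.12 ± 0.28 (SE; limma adjusted p = 0.951). The 3 upstream CpGs were at 99% and 98.4% in WT, 98.4% and 98.4% in hSTAT5B, and 98.2% and 97.2% in hSTAT5B N642H.

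Uhrf1, which recognizes hemimethylated DNA, was the exception among the promoters. Its 16 promoter CpGs were at 55.1% and 52.0% in WT, 51.6% and 48.9% in hSTAT5B, and 52.8% and 47.1% in hSTAT5B N642H. WT and hSTAT5B did not overlap, and hSTAT5B N642H spanned both. The difference of hSTAT5B from WT was -3.28 points as a mean of CpGs. The log2 ratio of summed reads was of the opposite sign, 0.08 ± 0.40 (SE, limma adjusted p = 0.993). This average joins 2 states, as the printed sequences show. The 9 CpGs centered at -482 bp from the start, outside the CGI, were at 91.7% and 90.0% in WT, 90.0% and 84.9% in hSTAT5B, and 92.7% and 81.5% in hSTAT5B N642H. The 3 CpGs centered at -103 bp, where the CGI begins, were at 18.8% and 1.96% in WT, 5.31% and 6.06% in hSTAT5B, and 2.56% and 6.67% in hSTAT5B N642H. Apart from 18.8% in WT replicate 1, the latter were at 6.67% or less in all libraries, on 17 to 66 calls. The genotypes overlapped at both stretches.

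The start of Uhrf1-204, inside the same CGI, was unmethylated at 6.20% and 0.833% in WT, 2.51% and 1.04% in hSTAT5B, and 1.64% and 1.45% in hSTAT5B N642H over 9 CpGs. The highest value was again that of WT replicate 1. The Uhrf1 body (17 CpGs) was at 94.7% and 98.4% in WT, 96.8% and 97.6% in hSTAT5B, and 94.4% and 96.3% in hSTAT5B N642H. All 17 of these CpGs were above 80%, but 13 of them lie in sequence with close copies elsewhere, 12 with a copy on chromosome X and 1 with copies on other chromosomes only, so that their reads may come from those places. The upstream flank, over the neighboring gene Arrdc5, was at 98.4% and 99.6% in WT, 99.2% and 98.1% in hSTAT5B, and 96.6% and 96.9% in hSTAT5B N642H over 12 CpGs, and both hSTAT5B N642H values lay below all others. The downstream flank (38 CpGs), which includes the start of the histone demethylase gene Kdm4b, ranged from 15.2% to 19.6% without any separation of the genotypes.

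Dnmt3a, a de novo methyltransferase, was covered best, with 211 CpGs. Its main promoter had 95 CpGs, with 1667 to 3440 calls per library. It was at 2.48% and 1.51% in WT, 1.91% and 2.11% in hSTAT5B, and 1.25% and 2.31% in hSTAT5B N642H. The start of Dnmt3a-205, the short transcript from within the gene whose upstream sequence is printed above, was at 5.04% and 1.64% in WT, 1.92% and 0.964% in hSTAT5B, and 1.41% and 2.51% in hSTAT5B N642H over 17 CpGs. Both starts were thus unmethylated in all genotypes, and the genotypes overlapped at both. The body (92 CpGs) was at 57.6% and 58.2% in WT, 56.8% and 57.2% in hSTAT5B, and 58.8% and 56.8% in hSTAT5B N642H. This mean joins 35 CpGs that were below 20% with 48 that were above 80%, and 9 lay between.

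The 3 downstream CpGs of Dnmt3a were at 65.7% and 47.8% in WT, 46.9% and 58.3% in hSTAT5B, and 64.1% and 66.3% in hSTAT5B N642H. The 2 WT libraries were far apart here. Both hSTAT5B N642H values lay above both hSTAT5B values, by 12.6 points (log2 ratio 0.42 ± 0.34 SE, limma adjusted p = 0.829), and overlapped with WT. Of the 3 CpGs, 1 lies in copied sequence, and without it too few remained for a value. The starts of Dnmt3a-208, Dnmt3a-209 and Dnmt3a-213 were not covered well enough, with at most 1 CpG read in all libraries.

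Dnmt3b, the other de novo methyltransferase, had an unmethylated promoter CGI. Its 40 CpGs were at 0.451% and 1.81% in WT, 1.48% and 1.71% in hSTAT5B, and 2.05% and 1.91% in hSTAT5B N642H. Both hSTAT5B N642H values lay above both WT values, but the means, 1.13% ± 0.963 and 1.98% ± 0.0995 (SD, n = 2 each), were less than a percentage point apart. The body (28 CpGs) was at 73.0% and 74.0% in WT, 72.1% and 71.9% in hSTAT5B, and 72.6% and 77.1% in hSTAT5B N642H. It was highest in hSTAT5B N642H replicate 2 and had the widest range of the 8 gene bodies, 5.20 points from the lowest to the highest library. The 3 upstream CpGs were at 93.4% and 90.5% in WT, 88.3% and 89.7% in hSTAT5B, and 89.4% and 90.0% in hSTAT5B N642H, with WT above the other genotypes.

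The Dnmt3b body included 5 intronic CpGs, 29626 bp from the start, at 64.0% and 74.0% in WT, 52.0% and 55.0% in hSTAT5B, and 66.6% and 80% in hSTAT5B N642H. The hSTAT5B values were the lowest, -15.5 points from WT and separated from both other genotypes. This sequence has close copies throughout the genome and had 31 to 54 calls per library over all 5 CpGs. Among 6534 genes with 20 or more body CpGs, those whose body levels were nearest to Dnmt3b over the 6 libraries were Adgra3, an adhesion G protein–coupled receptor gene (42 CpGs, root mean square difference 0.996 points), Slc6a6, the taurine transporter gene (37 CpGs, 1.18 points), and Ctc1, a telomere maintenance gene (21 CpGs, 1.35 points).

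Tet1, Tet2 and Tet3 encode the dioxygenases that oxidize 5-methylcytosine. In Tet1, the starts differed in state within the gene. The 11 CpGs at Tet1-210, next to a CGI, were at 4.46% and 1.67% in WT, 2.61% and 2.12% in hSTAT5B, and 3.11% and 2.30% in hSTAT5B N642H. The 5 CpGs at Tet1-201 were fully methylated, at 99.3% and 99.3% in WT, 99.1% and 99.7% in hSTAT5B, and 98.8% and 98.9% in hSTAT5B N642H. Each start was in the same state in all 6 libraries. The main start, Tet1-206, had 2 CpGs with enough reads and no value as a region. Over its 3 CpGs with any read in all libraries, 45 of 48 and 37 of 41 calls were methylated in WT, 31 of 35 and 29 of 42 in hSTAT5B, and 33 of 38 and 21 of 28 in hSTAT5B N642H.

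The Tet1 body (63 CpGs) was at 52.8% and 50.3% in WT, 54.6% and 54.2% in hSTAT5B, and 53.9% and 54.1% in hSTAT5B N642H. Both WT libraries lay below the 4 transgenic ones, by 2.44 points for hSTAT5B N642H and 2.87 points for hSTAT5B. The log2 ratios of summed reads were of the opposite sign, -0.09 ± 0.29 and -0.06 ± 0.29 (SE; limma adjusted p = 0.968 and 0.992), so that the direction depended on how CpGs were weighted. Of the 63 CpGs, 23 were below 20%, 28 above 80% and 12 between. The upstream flank (6 CpGs) was at 93.6% and 88.7% in WT, 92.9% and 90.2% in hSTAT5B, and 93.3% and 95.9% in hSTAT5B N642H, and the downstream flank (4 CpGs) between 96.1% and 99.7%.

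Tet2 showed little variation. Its promoter (65 CpGs) was at 2.85% and 3.85% in WT, 2.75% and 2.97% in hSTAT5B, and 3.15% and 3.06% in hSTAT5B N642H, with WT overlapping both other genotypes. The body (29 CpGs) was at 83.0% and 83.9% in WT, 83.8% and 84.5% in hSTAT5B, and 83.3% and 82.7% in hSTAT5B N642H. The hSTAT5B N642H values overlapped with WT and lay below hSTAT5B by 1.12 points. The upstream flank (5 CpGs) was at 91.7% and 97.1% in WT, 96.4% and 96.0% in hSTAT5B, and 89.7% and 93.4% in hSTAT5B N642H, and the 3 downstream CpGs ranged from 91.6% to 100%.

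In Tet3, both covered starts were in CGIs. The main promoter (52 CpGs) was at 2.91% and 0.768% in WT, 2.31% and 1.25% in hSTAT5B, and 2.17% and 2.98% in hSTAT5B N642H, and the genotypes overlapped. The start of Tet3-202 (31 CpGs) was at 10.5% and 10.9% in WT, 8.21% and 11.4% in hSTAT5B, and 8.20% and 8.60% in hSTAT5B N642H. The hSTAT5B N642H values lay below both WT values and overlapped with hSTAT5B. The body (74 CpGs), where 62 CpGs were above 80%, was at 90.8% and 87.0% in WT, 88.8% and 87.6% in hSTAT5B, and 85.9% and 86.5% in hSTAT5B N642H. Again hSTAT5B N642H was the lowest in both libraries, with a WT mean of 88.9% ± 2.68 and an hSTAT5B N642H mean of 86.2% ± 0.414 (SD, n = 2 each; log2 ratio -0.21 ± 0.30 SE, limma adjusted p = 0.914).

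Most CGIs at the 8 loci were unmethylated. Of 27 stretches in or reaching into CGIs, 24 were below 10% in WT, the one where the Uhrf1 CGI begins was at 10.4%, and 2 were at 80% or more, both in coding exons of Tet3. The latter were at 100% and 94.6% in WT, 99.3% and 100% in hSTAT5B, and 96.7% and 97.5% in hSTAT5B N642H and at 99.2% and 98.8% in WT, 98.6% and 96.6% in hSTAT5B, and 96.6% and 96.9% in hSTAT5B N642H, over 7 CpGs each. Outside the CGIs, 3 CpGs of Tet3 in an untranslated exon, 984 bp past the start of Tet3-202, were at 53.2% and 9.26% in WT, 17.8% and 8.16% in hSTAT5B, and 13.3% and 0% in hSTAT5B N642H. WT replicate 1 stood far above the other libraries there, on 17 to 54 calls per library, and the genotypes overlapped.

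**Figure D3:**
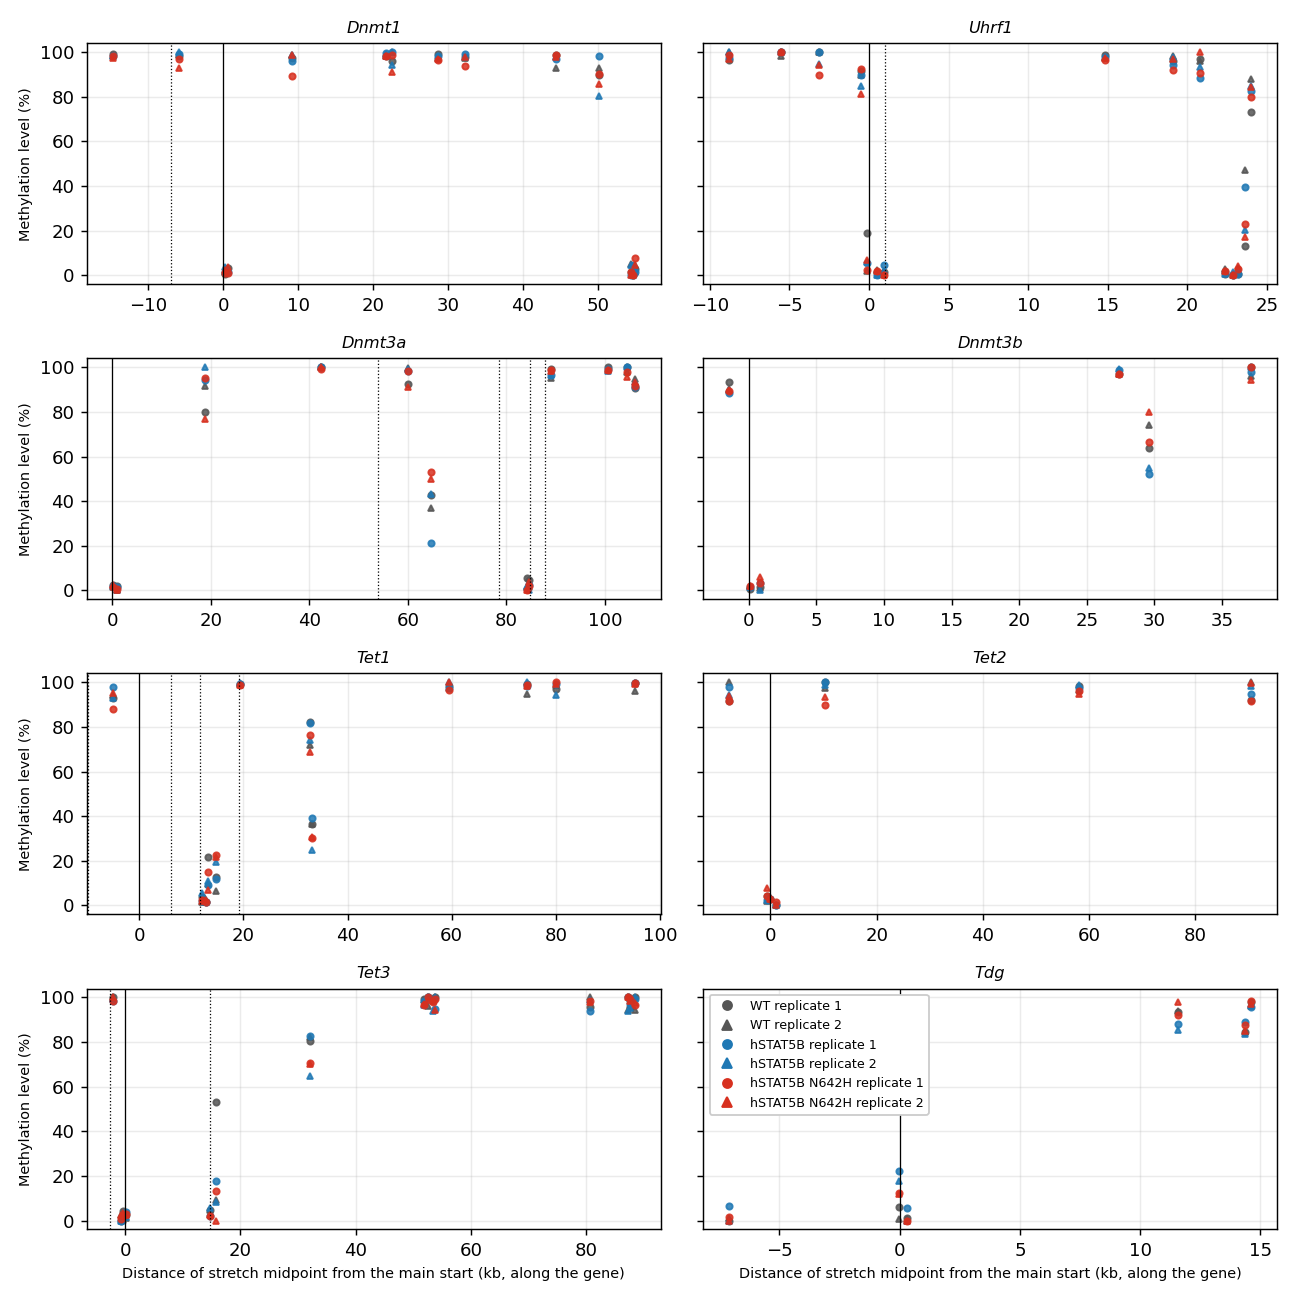
Methylation level (%) of each of the 87 stretches in each library against the distance of its midpoint from the main start (kb, along the direction of transcription), 1 panel per gene; solid vertical lines mark the main start and dotted lines alternative starts. Levels drop to near 0% at most covered starts, including those at Tet1-210, Dnmt3a-205 and Tet3-202 inside the genes, and the points of the 6 libraries spread most at stretches of middle level.

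Tdg, the glycosylase that removes oxidized methylcytosine, had the region with the largest separation from WT. Its 16 promoter CpGs, on 171 to 378 calls per library, were at 4.48% and 0.560% in WT, 17.1% and 12.1% in hSTAT5B, and 8.62% and 8.26% in hSTAT5B N642H. No 2 genotypes overlapped, and hSTAT5B was the highest. The WT mean was 2.52% ± 2.77, the hSTAT5B mean 14.6% ± 3.54 and the hSTAT5B N642H mean 8.44% ± 0.257 (SD, n = 2 each). Against WT, the log2 ratio was 3.34 ± 0.88 for hSTAT5B and 2.09 ± 0.88 for hSTAT5B N642H (SE; limma adjusted p = 0.731 and 0.715).

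The methylated reads of this promoter fell almost wholly in sequence that is not unique to Tdg. The 103 bases at chr10:82629821-82629923 are identical to chr10:42055372-42055474 on the other strand, a processed copy of Tdg. Across the 8 CpGs in these bases, 9 of 110 and 1 of 139 calls were methylated in WT, 44 of 135 and 23 of 102 in hSTAT5B, and 35 of 198 and 11 of 83 in hSTAT5B N642H. At the 3 CpGs before them, no call was methylated in any library, out of 24 to 51 calls. At the 5 CpGs after them, the libraries had 0 to 2 methylated calls of 35 to 184. Without the copied sequence, the Tdg promoter difference between hSTAT5B N642H and WT was -0.498 points.

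The copy itself was read too. Over 12 CpGs with a read in all libraries, its level was 24.3% and 0.521% in WT, 10.4% and 35.5% in hSTAT5B, and 30.8% and 8.59% in hSTAT5B N642H. The genotypes overlapped in this mean. At chr10:42055373 to chr10:42055408, WT replicate 1 had 4 reads per CpG and hSTAT5B replicate 1 had 3. From chr10:42055422 on, the CpGs match measured CpGs of the Tdg start. There no WT read was methylated except at chr10:42055424, whereas every transgenic library had methylated reads at each CpG. At chr10:42055427, 0 of 6 and 0 of 16 reads were methylated in WT. The counts were 3 of 15 and 7 of 17 in hSTAT5B, and 7 of 31 and 2 of 15 in hSTAT5B N642H. Which of the identical places a read came from cannot be told apart where it lies wholly within the identical bases. The Tdg promoter values may thus hold reads of the copy. At the first of the 8 CpGs, 33 bp before the start, each library had as many reads as at the CpG 70 bp before the start. Of the former, 1 of 17 reads was methylated in hSTAT5B N642H replicate 1 and none in the other libraries. The 8 CpGs lie within 50 bp and share reads: at a single one, 21 bp before the start, WT replicate 1 had 1 of 12 reads methylated (8.33%, 95% Wilson interval 1.49% to 35.4%) and hSTAT5B replicate 1 had 6 of 16 (37.5%, 18.5% to 61.4%). At the CpG 70 bp before the start, outside the copied bases, 0 of 8 reads in WT replicate 2 and 0 of 8 in hSTAT5B replicate 1 allow a level of up to 37.5%. This limit is 3 divided by the reads, an approximation, and the 95% Wilson interval of each reached 32.4%.

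**Figure D4:**
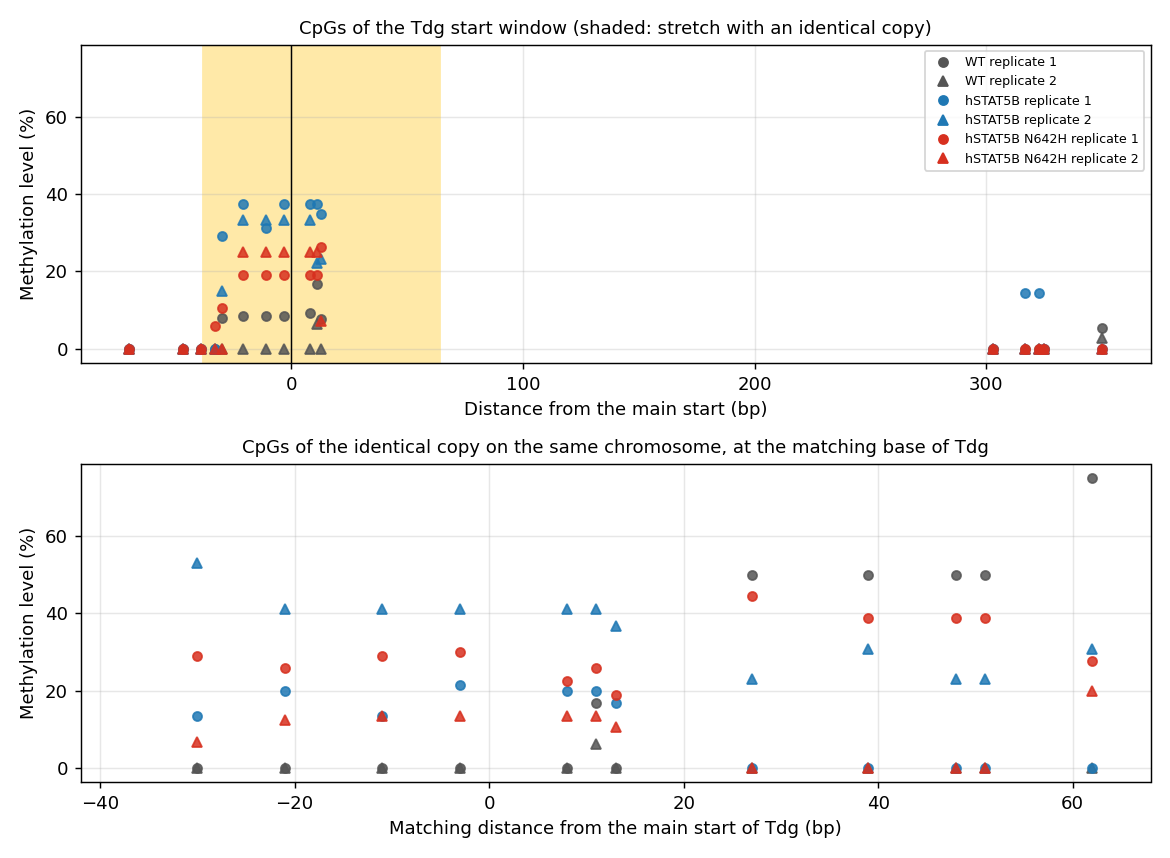
Methylation level (%) of single CpGs around the main start of Tdg in each library against distance from the start (bp, upper panel; shading, bases with an identical copy) and of the CpGs of that copy at the matching bases (lower panel). In the upper panel, methylated values gather inside the shading. Methylated calls there were 9 of 110 and 1 of 139 in WT against 44 of 135 and 23 of 102 in hSTAT5B. In the lower panel the libraries are in another order, and most WT values at bases also measured in the upper panel are 0%.

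The rest of Tdg showed no such separation. The body (21 CpGs, 16 of them in copied exons or repeats) was at 89.3% and 91.4% in WT, 93.0% and 90.8% in hSTAT5B, and 92.7% and 90.9% in hSTAT5B N642H. The 5 upstream CpGs, all in copied sequence, were at 0% and 1.33% in WT, 6.67% and 0% in hSTAT5B, and 1.48% and 0% in hSTAT5B N642H, on 50 to 204 calls per library. The genotypes overlapped at both. Of the 880 CpGs of the 8 genes, 82 lay in sequence with a copy of 50 bp or more at 95% identity or more, and 29 of these belonged to Tdg, whereas Tet3 had 0.

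Stretches were compared next, since a region can hide a short segment. Between hSTAT5B N642H and WT, 7 of 87 stretches (8.05%) were 5 or more points apart without overlap, 3 higher and 4 lower, against 13.2% of all 124081 stretches. Between hSTAT5B and WT the count was 5 of 87 (5.75%), against 10.5%, and between hSTAT5B N642H and hSTAT5B it was 7 of 87 (8.05%), against 13.1%. The limma test called 0 of all stretches in each comparison (0%), with 8496, 7832 and 8566 at an unadjusted p below 0.05, and the quasi-binomial model also called 0, with 11435, 7751 and 11426. Of single CpGs, 100 of 880 (11.4%), 71 (8.07%) and 91 (10.3%) were 5 or more points apart without overlap, against 15.8%, 13.1% and 15.6% of all CpGs. The 100 CpGs were 49 higher and 51 lower in hSTAT5B N642H than in WT. Of the 87 stretches, 29 were below 10% in WT, 50 at 80% or more, and 8 between.

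Outside the starts, the largest separation between hSTAT5B N642H and WT was in an intron of Tet1, 14777 bp from the main start. Its 4 CpGs, printed above, were at 12.9% and 6.67% in WT, 12% and 19.7% in hSTAT5B, and 22.7% and 21.7% in hSTAT5B N642H. The highest levels were those of hSTAT5B N642H, 12.4 points above WT on average (log2 ratio 1.27 ± 0.52 SE, limma adjusted p = 0.725). Most of the gap was at the first CpG of the printed sequence, where 4 of 18 and 0 of 13 reads were methylated in WT, 4 of 22 and 10 of 21 in hSTAT5B, and 11 of 24 and 9 of 23 in hSTAT5B N642H. The second Tet1 stretch, 33218 bp from the start, named after its values were seen, was at 36.7% and 36.6% in WT, 39.2% and 25% in hSTAT5B, and 30.1% and 30.9% in hSTAT5B N642H, so that hSTAT5B N642H lay below WT there, inside the range of hSTAT5B.

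An intron of Dnmt3a, 64755 bp from the main start, had 3 CpGs at 42.8% and 36.8% in WT, 21.1% and 43.1% in hSTAT5B, and 53.2% and 50.1% in hSTAT5B N642H. Both hSTAT5B N642H values lay above all others, 11.9 points above WT and 19.5 points above hSTAT5B (log2 ratio 0.65 ± 0.62 SE, limma adjusted p = 0.886 against WT). The hSTAT5B libraries differed from each other by more than either difference. The gap was widest at the second of the printed CpGs, where 10 of 25 and 8 of 25 reads were methylated in WT and 26 of 48 and 27 of 42 in hSTAT5B N642H.

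In 3 further genes a stretch lay lower in hSTAT5B N642H. An intron of Tet3, 32098 bp from the main start, was at 80.6% and 82.1% in WT, 82.9% and 64.6% in hSTAT5B, and 70.4% and 70.0% in hSTAT5B N642H over 3 CpGs. The mean difference from WT was -11.2 points (log2 ratio -0.90 ± 0.52 SE, limma adjusted p = 0.795), and hSTAT5B replicate 2 was lower than both hSTAT5B N642H libraries. An intron of Tet2, 10232 bp from the start, was at 100% and 97.4% in WT, 100% and 98.7% in hSTAT5B, and 90.1% and 93.3% in hSTAT5B N642H over 3 CpGs. Here both hSTAT5B N642H values were the lowest, and the gap was at 1 CpG, the first of the printed sequence, with 22 of 29 and 8 of 10 reads methylated in hSTAT5B N642H and 17 of 17 and 13 of 13 in WT.

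The third was in the upstream flank of Uhrf1, centered at -3159 bp from the start and within Arrdc5, at 100% and 100% in WT, 100% and 94.7% in hSTAT5B, and 89.7% and 94.4% in hSTAT5B N642H over 3 CpGs. The hSTAT5B N642H libraries were again the lowest, and again 1 CpG, the first of the printed sequence, held the gap: 9 of 13 and 5 of 6 reads were methylated in hSTAT5B N642H, against 8 of 8 and 11 of 11 in WT. In hSTAT5B, 15 of 15 and 16 of 19 reads were methylated at this CpG, so that replicate 2 was close to hSTAT5B N642H replicate 2. The limma adjusted p was 0.703. Dnmt1 and Dnmt3b had no stretch that met the rule between hSTAT5B N642H and WT.

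**Figure D5:**
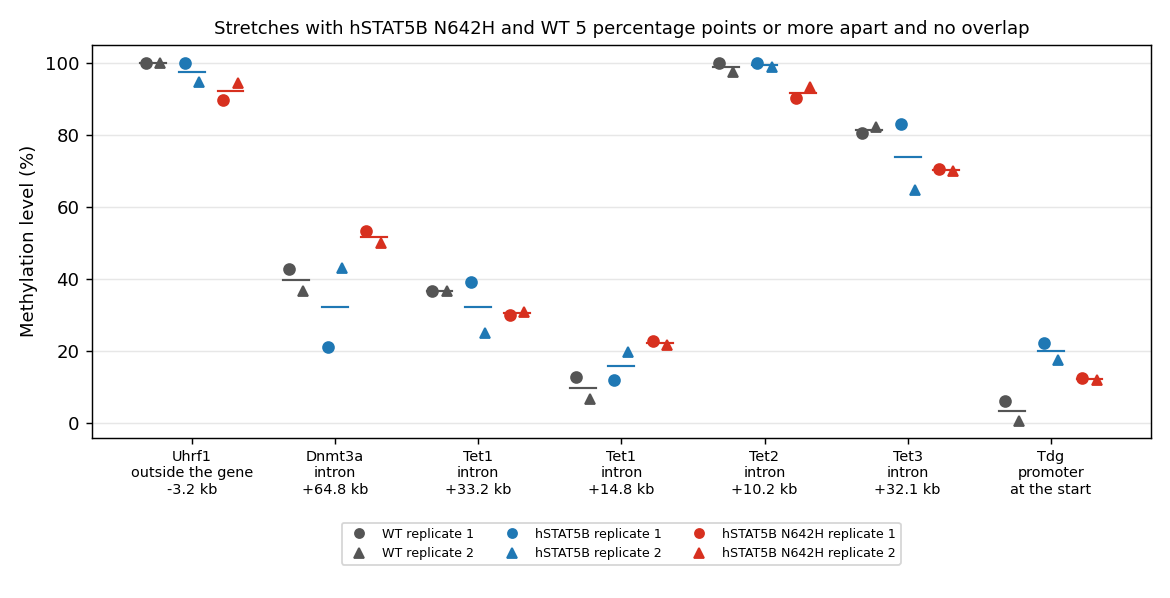
Methylation level (%) in each library (circles, replicate 1; triangles, replicate 2; bars, genotype means) of the 7 stretches of the 8 genes at which hSTAT5B N642H and WT were 5 or more percentage points apart without overlap, with gene, feature and distance from the main start. The red points of the Dnmt3a intron (50.1% and 53.2%) and of the Tet1 intron nearer the start (21.7% and 22.7%) lie above the gray ones, and those of Tet2, Tet3 and the Uhrf1 flank lie below them.

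Between hSTAT5B and WT, the 5 stretches were named after their values were seen, and 4 of them lie in copied sequence. They were the Tdg start and the Dnmt3b intron described above, a coding exon of Tdg, an intron of Dnmt3a and the downstream flank of Uhrf1. The Tdg exon was at 93.6% and 94.0% in WT, 88.1% and 85.6% in hSTAT5B, and 92.2% and 98.1% in hSTAT5B N642H, with hSTAT5B the lowest. The Dnmt3a intron, 18888 bp from the start, was at 80% and 91.7% in WT, 94.4% and 100% in hSTAT5B, and 95% and 76.8% in hSTAT5B N642H. There hSTAT5B lay above WT by 11.4 points and the hSTAT5B N642H libraries lay on either side. The Uhrf1 flank was at 97.0% and 96.3% in WT, 88.4% and 93.3% in hSTAT5B, and 90.5% and 100% in hSTAT5B N642H.

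Other genes of the pathway were taken from a list of 32, comprising partners of the methyltransferases, readers of methylation, TET partners and cofactor genes, and repair genes acting after oxidation. All 32 had a value, in 61 promoters, alternative starts and gene bodies, and 22 of 29 promoters were below 10% in WT. The limma test and the quasi-binomial model called 0 of the 61 in each comparison. Between hSTAT5B N642H and WT, 1 region was 5 or more points higher without overlap and 3 were lower (6.56% of the 61, against 8.97% of all regions), with a median difference of 0.271 points over the 61. Between hSTAT5B and WT 0 were higher and 1 lower (1.64%, against 6.56%). Between hSTAT5B N642H and hSTAT5B 3 were higher and 5 lower (13.1%, against 8.89%).

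The higher region was the body of Idh1, whose enzyme makes the 2-oxoglutarate that TET enzymes use, at 38.7% and 45.1% in WT, 40.1% and 52.6% in hSTAT5B, and 58.5% and 53.9% in hSTAT5B N642H over 9 CpGs. The promoter of Dppa3, whose protein keeps UHRF1 from chromatin, was at 85.8% and 81.9% in WT, 87.7% and 85.5% in hSTAT5B, and 75.6% and 66.2% in hSTAT5B N642H over 6 CpGs, with hSTAT5B N642H the lowest. The body of Idh2, the mitochondrial counterpart of Idh1, was at 86.2% and 79.9% in WT, 76.3% and 84.0% in hSTAT5B, and 77.7% and 78.3% in hSTAT5B N642H, and hSTAT5B overlapped with both genotypes.

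The promoter of Neil2, a glycosylase gene of base excision repair, was at 54.3% and 54.8% in WT, 50.4% and 54.0% in hSTAT5B, and 49.8% and 44.1% in hSTAT5B N642H over 7 CpGs. As a mean of CpGs, hSTAT5B N642H minus WT was -7.61 points there. The log2 ratio of summed reads was of the opposite sign, 0.26 ± 0.43 (SE, limma adjusted p = 0.927). The region in which hSTAT5B lay below WT was the promoter of Xrcc1, a scaffold of single-strand break repair, at 89.0% and 82.6% in WT, 80.4% and 66.7% in hSTAT5B, and 89.4% and 89.0% in hSTAT5B N642H over 3 CpGs. The hSTAT5B N642H libraries were on the WT side there. The remaining regions apart between hSTAT5B N642H and hSTAT5B were the bodies of Hells, Mbd1 and Neil1 and the promoter of Zbtb33, with differences of -8.01, -6.46, 7.71 and -5.25 points.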

How the data were processed

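DNA methylation was measured by RRBS in 6 libraries of CD8+ T cells. The authors trimmed reads with Trimmomatic, aligned them with BSMAP in RRBS mode to GRCm38 (mm10), and called CpGs with their own scripts. Versions, and the handling of reads with several matching places, are not given in the sources used here. For every CpG the authors deposited the methylated and total read counts, without normalization, and a score that is the methylated share scaled to 1000, which the authors rounded and which served only as a check.

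CpGs with 5 or more reads in all 6 libraries and fewer than 1000 in each were used. Genes, starts and features came from GENCODE M21, with the main start that of the principal transcript. Transcripts annotated without a complete 5′ end were not counted as starts, a choice made after seeing the data. CGIs were called on the RefSeq GRCm38 sequence by the UCSC rule, and copied sequence was found with blastn 2.17.0. Regions and stretches were fitted with limma 3.58.1 (R 4.3.3) on log2((methylated + 1)/(unmethylated + 1)) reads, with genotype as the term and Benjamini-Hochberg adjustment over all regions or stretches at 0.05. The code was tested on simulated data. Other steps used Python 3.11.15.

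All 8 genes are named, with the stretches at their starts and, elsewhere, each gene's largest separation of hSTAT5B N642H from WT of 5 points or more without overlap. The 8 genes and the lists were chosen with earlier results of these data known. Alternatives covered read minimums, windows, the offset, a mean-variance trend, the CpG minimum, pooled reads, a quasi-binomial model, the replicate number as a block, and each library left out.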

Additional observations from a re-analysis of the deposited data

Results flagged for a closer look

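At 5 places near these genes, both libraries of hSTAT5B N642H lay on one side of both WT libraries and both libraries of hSTAT5B on the other side. They were 1 of 32 regions, against 2.66% of all regions, and 4 of 87 stretches, against 2.48% of all stretches. The difference between the 2 effects is the difference between hSTAT5B N642H and hSTAT5B, which the limma model did not call at any of the 5 places, and its adjusted p is given with each. In the downstream flank of Dnmt1, hSTAT5B N642H minus WT was -2.54 points and hSTAT5B minus WT 1.45 points (limma adjusted p = 0.929). Within that flank, the stretch of 5 CpGs at chr9:20898005-20898151, near the start of Eif3g, had differences of 2.42 and -2.19 points (limma adjusted p = 0.740), thus in the opposite order to the flank as a whole. A stretch of 4 CpGs in an intron of Dnmt1, at chr9:20958779-20958896, had -3.73 and 0.878 points (limma adjusted p = 0.710). At the start of Uhrf1-204, the 5 CpGs at chr17:56304226-56304275 had -1.58 and 1.60 points (limma adjusted p = 0.693), with levels between 0% and 4.51%. In a coding exon of Dnmt3b, the 5 CpGs at chr2:153676821-153676901 had -0.251 and 1.93 points (limma adjusted p = 0.709), with levels between 96.8% and 99.3%. All 10 differences are below 5 percentage points.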

How the results depend on the processing

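The count of regions of the 8 genes 5 or more points apart without overlap moved with most settings, which is a matter of 0 to 4 regions. Between hSTAT5B N642H and WT (1 region) it was 0 with 10 reads per CpG, 2 with 1 read, 2 with flanks of 5 kb, 0 without copied sequence (chosen after seeing the data) and 0 at a threshold of 10 points; leaving out 1 library gave 1 to 4. Between hSTAT5B and WT (1 region) it was 0 with 10 reads, 3 with 1 read, 2 with pooled reads, 2 with 500 bp on either side of a start and 0 without copied sequence; leaving out 1 library gave 1 to 3. Between hSTAT5B N642H and hSTAT5B (2 regions) it was 4 with pooled reads, 1 with flanks of 5 kb, 1 with at least 5 CpGs per region, 0 without copied sequence and 1 at 10 points; leaving out 1 library gave 2 to 3. Fewer CpGs qualify at 10 reads. With 1 library left out, the rule asks for no overlap of 1 library with 2, which is easier to meet. The cause of the moves was otherwise not tested. The Tdg promoter changed sign: hSTAT5B N642H minus WT was -4.56 points with 1 read per CpG and -0.498 without copied sequence, and hSTAT5B minus WT was -2.47 with 1 read.

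The quasi-binomial model called 51, 1 and 34 regions in the 3 comparisons where limma called 0; every other setting of limma called 0 regions and 0 stretches, also with each library left out (0 to 0). The replicate numbers did not pair the libraries: deviations of same-numbered libraries correlated at -0.0134 to 0.00529, and the fit with the replicate number as a block called 0 regions and 0 stretches. Without hSTAT5B N642H replicate 1, the difference at the Uhrf1 flank stretch was -5.56 points. Each value rests on 2 libraries per genotype and a median of 17 to 32 reads per CpG, and the absence of a call does not show that the genotypes were alike.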
